A study of Mus musculus with 8 samples.

Results

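Heat shock chaperones, the proteins that hold, fold and unfold other proteins in the cytosol and the mitochondrion, were followed in the colonic mucosa of mice with and without inhibition of Dnmt1, the maintenance DNA methyltransferase. The members are 10 genes chosen by symbol: the HSP70 genes Hspa1a, Hspa1b and Hspa8, the HSP110 gene Hsph1, the J protein gene Dnajb1, the HSP90 genes Hsp90aa1 and Hsp90ab1, the small heat shock protein gene Hspb1 and the mitochondrial chaperonin genes Hspd1 and Hspe1. They were chosen with results of the genotype comparison known, so their changes are given as descriptions, with no p-value, and counts of calls among them stand only beside the share of all rows. Of the 10 genes, 8 had a row among the 18097 rows of the array table, 1 row each, and 6 of these were among the 6982 rows detected often enough to be tested. Hspa1b and Hsp90ab1 were not analysed here. All 4 mice carried the genotype Dnmt1LO/LO. Of these, 2 carried nothing else and are called control mice, and 2 also carried TgVillacIGY and are called transgenic mice. Every mouse was a male, aged 157 days, with a 129Sv/B6/D2 mixed strain background. The labels do not say what drives the transgene or in which cells it acts. Total RNA of each mouse was measured on 2 Illumina MouseRef-8 v2.0 BeadChip arrays, averaged into a single replicate, which leaves n = 2 for each genotype.

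Chaperones of this kind work as a relay. HSP70 proteins bind unfolded stretches of a client and use ATP to release it; J proteins such as Dnajb1 bring clients to HSP70 and start ATP hydrolysis, HSP110 proteins such as Hsph1 exchange the nucleotide, and HSP90 takes over clients such as kinases and steroid receptors. In mitochondria, Hspd1 forms a barrel in which proteins fold and Hspe1 is its lid. Heat, oxidants and unfolded proteins free the transcription factor HSF1, which binds inverted repeats of GAA, called heat shock elements, near the starts of these genes. Hspa1a and Hspa1b are strongly inducible, whereas Hspa8 is the constitutive HSP70 of most tissues. In the gut, heat shock proteins are known to protect the epithelium against oxidants and inflammation.

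The arrays held an epithelial sample by its markers. Of 11 colonic epithelium markers with a row, 10 were detected on all 8 arrays, and Slc26a3 on none. Of the 7 fibroblast markers none was detected on all arrays and 6 on no array, and all 4 neuron and glia markers with a row were undetected. Of 10 smooth muscle markers 7 were undetected, among them Myh11, Des and Actg2. The others were Mylk, detected on all 8 arrays, Smtn on 6 and Acta2 on 2. Of 7 leukocyte markers 5 were undetected, and of 6 endothelial markers 4. The detected ones differed between genotypes in places: the endothelial Vwf was at 7.70 and 7.65 in control mice and at 11.08 and 10.20 in transgenic mice (limma, adjusted p = 0.0977). Esam, the only other endothelial marker detected, overlapped, at 7.71 and 7.41 in control mice and 8.56 and 7.68 in transgenic mice (adjusted p = 0.690). The T cell markers Cd3e and Cd3d were at -1.003 ± 0.33 and -0.99 ± 0.24 (SE, adjusted p = 0.524 and 0.379), detected on 4 control and 2 transgenic arrays each. The smooth muscle Smtn was at 7.97 and 7.68 in control mice and 8.97 and 8.48 in transgenic mice (limma, adjusted p = 0.434). It was detected on 2 control and 4 transgenic arrays. Mylk was at 8.78 and 8.80 in control mice, 7.08 in transgenic mouse 1 and 8.87 in mouse 2, with overlap. Of 6 squamous epithelium markers 3 were undetected, Krt10 was detected on all 8 arrays, and Krt14 on all 4 control arrays and 0 transgenic arrays. The summed raw signal of the endothelial markers was 921 and 852 without and 2403 and 2114 with the transgene, that of the leukocyte markers 944 and 953 without and 718 and 922 with it, and that of the squamous markers 1621 and 2107 without and 1165 and 1416 with it. For the smooth muscle markers this sum was 1575 and 1513 without and 1340 and 1878 with the transgene. The part of these cell types in the chaperone levels was not tested. The summed raw signal of the epithelial markers was 209871 in control mouse 1, 208697 in control mouse 2, 116565 in transgenic mouse 1 and 224885 in transgenic mouse 2. Arrays of transgenic mouse 1 were also dimmer, with mean raw signals of 698 and 753 against 866 to 1080 on the other arrays. After normalization, 4 of the 10 tested epithelial markers were above the control mean in transgenic mouse 1, with a median of -0.20. Of all rows, 51.5% were above it. The markers split, from Krt20 at -2.33 and Krt19 at -1.21 to Cdh1 at 0.16 and Krt18 at 0.37. The Dnmt1 row had raw signals of 580 to 932 on the control arrays and 180 to 248 on the transgenic arrays, and a change of -2.20 ± 0.28 (log2, SE) that did not pass over all rows (limma, adjusted p = 0.129). Dnmt1 stood at 7.44 in transgenic mouse 1 and 6.75 in mouse 2, both below the control mice at 9.41 and 9.18, an order of mice found in 20.9% of all rows.

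Among the chaperones, Hspa1a and Hspa8 separated the transgenic mice from each other, whereas Hsph1, Hspd1, Dnajb1 and Hspe1 lay above both control mice in both transgenic mice. With median scaling in place of quantile normalization, Dnajb1 no longer lay above both control mice in transgenic mouse 1. In bulk tissue, a different share of cells and a different level per cell cannot be told apart. Levels are log2 values after background correction and quantile normalization, and changes are transgenic minus control with the standard error of the limma fit. Of the 6 members tested, limma called 0 at an adjusted p under 0.05, where it called 0.129% of all rows, and 2 of the 6 had an unadjusted p under 0.05, as did 8.39% of all rows. For 4 of the 6, each transgenic mouse exceeded each control mouse, against 21.7% of all rows. The rule of choice used this contrast, so nothing is read from these counts. All 6 changes were positive, from 0.27 to 1.17, with a median of 0.67. The median over all 6412 genes tested was -0.01.

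**Figure D1:**
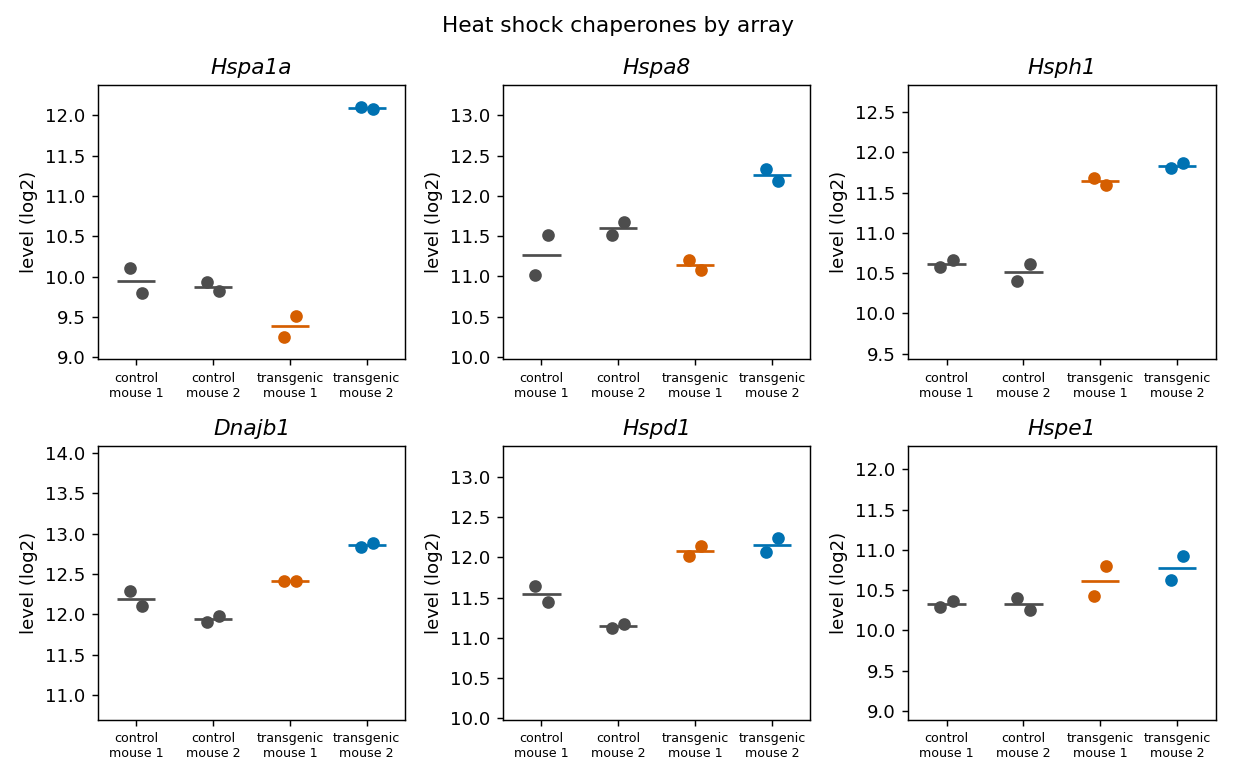
Level (log2) of the 6 chaperones tested, by mouse: points are single arrays, lines the mean of a mouse's arrays, and every panel spans the same range. Hspa1a and Hspa8 are high in transgenic mouse 2 alone, while Hsph1 and Hspd1 are above the control mice in both transgenic mice.

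Hspa1a (ILMN_1225328; chromosome 17, 34969359 to 34972156 in GRCm38.p6) encodes an inducible HSP70. Control mouse 1 gave raw signals of 1265 and 938, and control mouse 2 gave 1188 and 892. Transgenic mouse 1 gave 531 and 672, and transgenic mouse 2 gave 4982 and 5038. After normalization the control mice stood at 9.95 and 9.87, transgenic mouse 1 at 9.38 and transgenic mouse 2 at 12.09. The transgenic mice thus lay on opposite sides of the control mice, and the genotypes overlapped. Transgenic mouse 2 was 2.18 above the control mean, or 4.53-fold, and transgenic mouse 1 was at -0.53 from it. The gap between the transgenic mice was 2.71, or 6.54-fold, whereas the arrays of 1 mouse differed by at most 0.31. Of all rows tested, 0.516% had a gap between the transgenic mice at least as large. In transgenic mouse 1, 28.1% of all rows were at least as far from the control mean, in either direction. The mean change between genotypes, 0.83 ± 0.89 (SE), therefore describes neither mouse: leaving out transgenic mouse 1 gave 2.18, and leaving out mouse 2 gave -0.53. Hspa1a and its neighbour Hspa1b encode nearly the same protein, and whether this probe also binds Hspa1b transcripts was not checked, so the signal may belong to either gene.

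Hspa8 (ILMN_1249586; chromosome 9, 40801276 to 40805202 in GRCm38.p6), the constitutive HSP70, was likewise highest in transgenic mouse 2 and lowest in transgenic mouse 1, with a smaller gap between them. Its array levels were 11.01 and 11.52 in control mouse 1 and 11.51 and 11.68 in control mouse 2. Transgenic mouse 1 gave 11.21 and 11.08, and transgenic mouse 2 gave 12.34 and 12.18. Both arrays of transgenic mouse 2 were above all other arrays, and those of transgenic mouse 1 lay within the range of the control arrays. Transgenic mouse 2 was 0.83 above the control mean and mouse 1 was at -0.29 from it, which put the transgenic mice 2.16-fold apart. In mouse 1, 52.8% of all rows were at least as far from the control mean, in either direction. The control mice were 0.33 apart and the arrays of control mouse 1 0.50 apart. The change between genotypes was 0.27 ± 0.41 (SE). Transgenic mouse 2 was over 2-fold above transgenic mouse 1 for 2 of the 6 members, Hspa1a and Hspa8, against 5.73% of all rows.

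The start regions of Hspa1a and Hspa1b are shown because Hspa1a had the widest gap between the transgenic mice among the members tested, and because the start of Hspa1b, which had no row, is so similar. The 250 bases before each start (RefSeq, GRCm38.p6, minus strand) are nearly the same, with 247 of 250 positions identical (98.8%). Capitals mark a match to the short heat shock element motif (GAANNTTC or TTCNNGAA, each its own reverse complement), whose first base is at position -104, counted with 0 at the first base of the transcript.
Hspa1a, chr17:34972157-34972406: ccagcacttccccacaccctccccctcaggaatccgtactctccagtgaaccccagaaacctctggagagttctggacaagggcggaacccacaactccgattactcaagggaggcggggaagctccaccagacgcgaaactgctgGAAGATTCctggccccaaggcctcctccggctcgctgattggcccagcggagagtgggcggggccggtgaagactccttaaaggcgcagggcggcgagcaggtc
Hspa1b, chr17:34959239-34959488: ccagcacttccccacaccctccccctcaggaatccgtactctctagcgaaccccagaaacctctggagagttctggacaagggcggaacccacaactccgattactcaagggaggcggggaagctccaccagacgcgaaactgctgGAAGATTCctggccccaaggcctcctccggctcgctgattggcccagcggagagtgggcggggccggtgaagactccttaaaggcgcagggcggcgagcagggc
The short motif is common: 4946 of 32851 RefSeq start windows (250 bases before to 50 after a start) hold it, or 15.1%. The windows of both genes held no match to the long motif (GAANNTTC followed by NNGAA, or its reverse complement, TTCNNGAA followed by NNTTC, so that each long match contains short ones), which 198 windows hold, or 0.603%.

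Hsph1 (ILMN_2716098; chromosome 5, 149616843 to 149636498 in GRCm38.p6), the HSP110 protein that resets HSP70 and also holds unfolded proteins itself, had the largest change with both transgenic mice on one side. Its array levels were 10.58 and 10.66 in control mouse 1 and 10.41 and 10.61 in control mouse 2. Transgenic mouse 1 gave 11.69 and 11.59, and transgenic mouse 2 gave 11.81 and 11.86. No transgenic array reached down to a control array. Means were 10.56 ± 0.08 without and 11.74 ± 0.14 with the transgene (SD, n = 2). The change was 1.17 ± 0.18 (SE), which is 2.25-fold. Transgenic mouse 1 was 1.07 above the control mean and mouse 2 was 1.27 above it. Of all rows, 8.52% were at least as far from the control mean in transgenic mouse 1, in either direction. Hsph1 was the single member over 2-fold above the control mean in transgenic mouse 1, where 4.01% of all rows were, and with Hspa1a it was one of 2 in transgenic mouse 2, where 2.15% were. Hsph1 was thus high in transgenic mouse 1 although Hspa1a and Hspa8 were not.

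The Hsph1 window held the long motif just inside the gene, 15 bases after one annotated start and 36 after the other, on chromosome 5 at 149636288 to 149636300 (minus strand). A match to the short motif alone lay upstream, at -54 and -33 from these starts. The long match is shown with its flanks, in capitals.
Hsph1, chr5:149636280-149636308: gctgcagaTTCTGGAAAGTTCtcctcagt

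Dnajb1 (ILMN_1240323; chromosome 8, 83608175 to 83612653 in GRCm38.p6), the main inducible J protein partner of HSP70, lay between these patterns. The control mice stood at 12.20 and 11.94, transgenic mouse 1 at 12.41 and transgenic mouse 2 at 12.86. Both transgenic mice were above both control mice, by 0.35 and 0.80 against the control mean, and the change was 0.57 ± 0.23 (SE), or 1.49-fold. The lowest transgenic array, at 12.41, was above the highest control array, at 12.29. The control mice differed from each other by 0.26, so transgenic mouse 1 stood about as far from the nearer control mouse as the control mice from each other. Of all rows, 45.1% were at least as far from the control mean in transgenic mouse 1, in either direction. With median scaling, transgenic mouse 1 was 0.06 above the control mean, less than the control SD of 0.213. Neither of the 2 Dnajb1 windows held the short or the long motif.

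Hspd1 and Hspe1, the barrel and the lid of the mitochondrial chaperonin, are neighbours that start head to head on chromosome 1 (Hspd1, ILMN_2713841, 55077833 to 55088243; Hspe1, ILMN_2960308, 55088148 to 55091317, in GRCm38.p6). The Hspd1 level was 11.54 in control mouse 1, 11.15 in control mouse 2, 12.08 in transgenic mouse 1 and 12.15 in transgenic mouse 2. Its change was 0.77 ± 0.21 (SE), or 1.71-fold, with 0.73 for transgenic mouse 1 and 0.81 for mouse 2, nearly the same in both. The control mice differed by 0.39, the widest gap between control mice among the 6 members. Hspe1 was at 10.33 in both control mice, 10.61 in transgenic mouse 1 and 10.78 in transgenic mouse 2, a change of 0.36 ± 0.17 (SE), or 1.29-fold. Of all rows, 53.2% were at least as far from the control mean in transgenic mouse 1 as Hspe1, and 17.2% as Hspd1, in either direction. With median scaling the difference in transgenic mouse 1 was 0.05 in place of 0.28. The arrays of 1 transgenic mouse differed by up to 0.38 for Hspe1, as much as the change itself. Its control arrays ran from 10.26 to 10.41 and its transgenic arrays from 10.42 to 10.93. The arrays did not overlap, although the lowest transgenic array all but touched the highest control array.

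The stretch between the inner Hspd1 start and the Hspe1 start is shown because both genes share it. It runs in the direction of Hspe1 (plus strand). The capitals are 2 overlapping matches to the long motif, at 55088059 to 55088071 and 55088064 to 55088076.
Hspe1 and Hspd1, chr1:55087933-55088147: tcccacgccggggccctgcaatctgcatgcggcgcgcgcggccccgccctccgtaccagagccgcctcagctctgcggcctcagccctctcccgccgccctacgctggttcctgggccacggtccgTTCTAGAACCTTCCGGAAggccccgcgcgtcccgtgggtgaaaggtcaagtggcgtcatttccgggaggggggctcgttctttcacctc
The same bases are read from the other strand in the inner Hspd1 window, whereas the outer Hspd1 window held no match. Windows were at hand for 7 of the 10 members; Hspa8, Hsp90aa1 and Hsp90ab1 had none. Of the 7, Hsph1, Hspd1 and Hspe1 held the long motif. A match is a run of letters and says nothing of HSF1 binding in these mice.

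**Figure D2:**
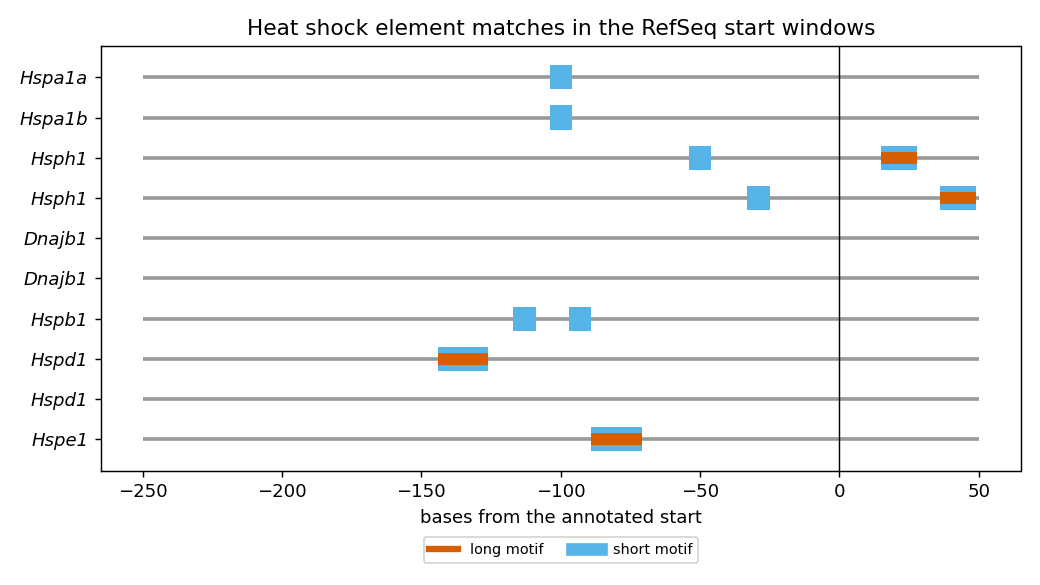
Matches to the short and long heat shock element motifs in the RefSeq windows of 7 chaperone genes, from 250 bases before to 50 after each annotated start (x axis, bases from the start), 1 grey line per window. Hsph1, Hspd1 and Hspe1 hold the long motif, and Hspa1a and Hspa1b the short motif at the same distance of -104.

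The remaining members gave no level. The row of Hsp90aa1 (ILMN_2662557), the stress-inducible cytosolic HSP90, was detected on 0 of 8 arrays, with raw signals of 86.2 to 97.0 on control arrays and 96.3 to 150 on transgenic arrays, near the background mean of 80.0 to 95.5. Both arrays of transgenic mouse 2 gave its highest signals, at 135 and 150, yet with detection p of 0.199 and 0.287. The detection values of this row were not whole steps, as in rows that look like means over several probes. The row of Hspb1 (ILMN_2515964), a small heat shock protein that holds unfolded clients and binds actin, was also detected on 0 arrays, with raw signals of 94.0 to 144. No fold is given for either gene.

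Seen by mouse, all 6 members were above the control mean in transgenic mouse 2 (48.9% of all rows were), with a median of 0.82, and 4 of 6 in transgenic mouse 1 (51.5% of all rows were), with a median of 0.31. The transgenic mice also differed more widely from each other over all rows than the control mice did, with a median SD of 0.215 against 0.103. The order of the members was thus not the same in both mice: Hspa1a led in mouse 2 and Hsph1 in mouse 1. The part of the lower array brightness and lower summed raw epithelial marker signal of transgenic mouse 1 in its lower Hspa1a and Hspa8 levels was not tested.

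**Figure D3:**
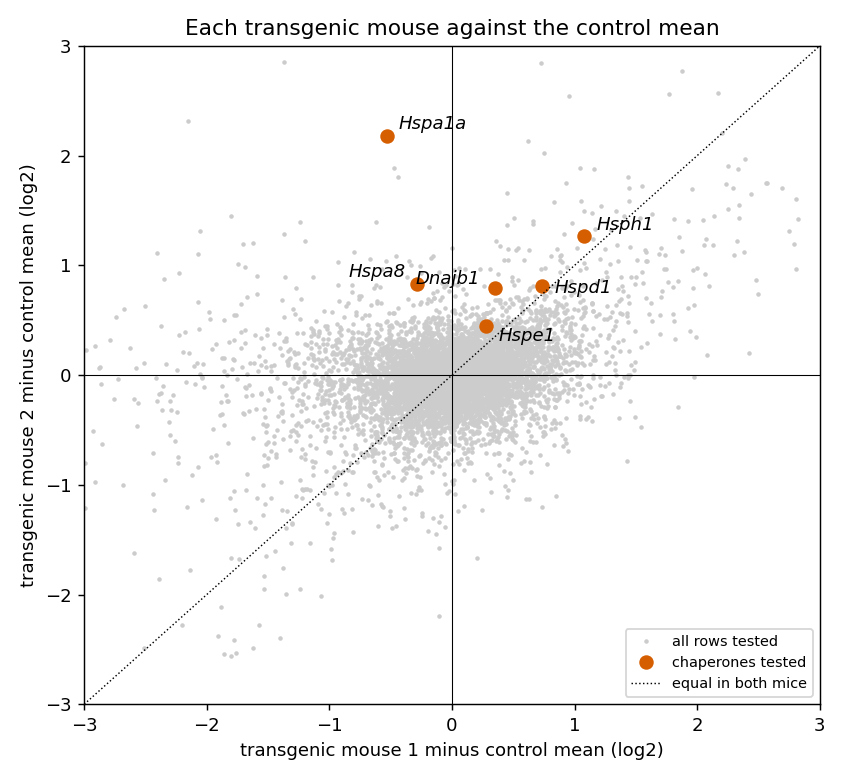
Difference from the control mean (log2) in transgenic mouse 1 (x axis) and transgenic mouse 2 (y axis) for all rows tested (grey, 43 rows lie outside the axes) and the 6 chaperones (orange). Hsph1 and Hspd1 sit near the dotted line of equal differences, and Hspa1a lies far above it at -0.53 and 2.18.

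Genes whose mouse-to-mouse pattern was most like the members were found by the root mean square difference from the members' mean profile over 4 mouse means, each gene centred on its own mean. That profile was -0.29 and -0.37 in the control mice, -0.06 in transgenic mouse 1 and 0.72 in mouse 2. The 5 closest other genes were Tpbg, Pclaf, Lpcat4, Csf2ra and Slc5a9, with differences of 0.084 to 0.154. The members themselves lay 0.142 (Dnajb1) to 0.685 (Hspa1a) from it. The profile is thus a mean of unlike members, and Tpbg, Pclaf and Lpcat4 were nearer to it than any of them.

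Other genes were taken from 14 lists, in which 120 genes other than the members were tested, called pathway genes below. The lists hold heat shock, chaperone and folding genes, but also proteasome (23 tested), immediate early (16), clock (6) and cold-induced genes (3). Some genes stand in several lists, so the list medians are not independent. Limma called 0 of the 120 in either direction, against 0.129% of all rows, and 17 (14.2%) had an unadjusted p under 0.05, against 8.39% of all rows. Of the 17, 3 were immediate early genes and 4 clock genes, all with negative changes. The median change over the 120 was 0.04. It pools lists with medians from -0.89 (clock genes) to 0.52 (relatives of HSP70 and HSP110). In transgenic mouse 2, where Hspa1a was 2.18 above the control mean, 1 of the 120 was over 2-fold above it (2.15% of all rows were), the clock gene Arntl at 1.09, named after its value was seen. Adjusted p below is that of limma over all rows.

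Regulators of the response were little covered. Hsf1 was not analysed here, and Hsf2 was detected too rarely. Hsbp1, a small protein that binds HSF1 and restrains it, was at -0.16 ± 0.17 (SE, adjusted p = 0.812), and Hspbp1, an HSP70 exchange factor, at 0.25 ± 0.17 (adjusted p = 0.717). Of the other heat-inducible HSF1 targets 8 of 22 were tested, with 5 positive and a median of 0.32 (0.34 in transgenic mouse 1, 0.29 in mouse 2), which was 0.16 with median scaling and 0.11 with no detection filter. Of these targets, Fkbp4, Chordc1, Stip1 and Ahsa1 also stand in the HSP90 list below, Bag3 in the BAG list and Tcp1 in the CCT list. Stip1, which links HSP70 to HSP90, was at 0.58 ± 0.18 (adjusted p = 0.492) and Chordc1, an HSP90 co-chaperone, at 0.53 ± 0.19 (adjusted p = 0.557). Both were higher in mouse 2 (0.69 and 0.69) than in mouse 1 (0.47 and 0.38), the order of the mice seen for Dnajb1. Fkbp4, the HSP90 immunophilin of steroid receptors, was at 0.43 ± 0.17 (adjusted p = 0.606), with 0.49 in mouse 1 and 0.36 in mouse 2.

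Among co-chaperones, the list of HSP90 paralogs and partners had 14 genes tested, 8 of them positive, and a median of 0.25 (0.23 and 0.33 in transgenic mice 1 and 2), which was 0.12 both with background from all rows and with median scaling. Ahsa2, related to the HSP90 ATPase activator, was at 0.61 ± 0.17 (SE, adjusted p = 0.443). It was detected on 3 of 4 control arrays, with a control mean of 6.49, near the detection limit. Of the HSP70 exchange factors and BAG proteins 9 were tested, 6 of them positive, with a median of 0.09 that was 0.37 in transgenic mouse 1 and -0.06 in mouse 2, and 0.03 with median scaling. The stress-inducible Bag3, which brings HSP70 clients to autophagy, was at 0.44 ± 0.17 (adjusted p = 0.592) and Bag6 at 0.28 ± 0.17 (adjusted p = 0.695). Bag1, an HSP70 exchange factor that also binds the proteasome, was at 0.48 in mouse 1 and -0.31 in mouse 2. Of 14 other J proteins tested, 5 were positive, with a median of -0.08 that was 0.05 without control mouse 2. Sec63, of the endoplasmic reticulum (ER) translocation channel, was at 0.32 ± 0.20 (adjusted p = 0.695), and the ER reductase Dnajc10 at 0.62 ± 0.38, with 1.13 in mouse 1 and 0.10 in mouse 2. The J proteins thus did not share the level of Dnajb1 as a list.

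The other chaperone families differed in their medians. For all 4 tested relatives of HSP70 and HSP110 each transgenic mouse exceeded each control mouse, an order found in 21.7% of all rows. Their median was 0.52 (0.69 in mouse 1, 0.47 in mouse 2), limma called 0, and taking the background from all rows gave a median of 0.09, and dropping the detection filter 0.18. They include the ER chaperone Hspa5 at 0.74 ± 0.17 (SE, adjusted p = 0.354), its exchange factor Hyou1 at 0.51 ± 0.18 (adjusted p = 0.546), and Hspa9, the mitochondrial HSP70, at 0.49 ± 0.18 (adjusted p = 0.566). Hspa5 and Hyou1 were each detected on 3 of 4 control arrays, with control means of 6.75 and 6.77, so their control levels are near the detection limit. The Hspa9 level was 13.19 in control mouse 1, 12.94 in control mouse 2, 13.52 in transgenic mouse 1 and 13.60 in transgenic mouse 2, nearly equal in both transgenic mice as for Hspd1. The list of mitochondrial proteases and folding factors, to which Hspa9 also belongs, had a median of 0.04 over 9 genes (-0.02 with median scaling), with the protease Spg7 at 0.25 ± 0.18 (adjusted p = 0.724) and the prolyl isomerase Ppif at -0.08. The cytosolic chaperonin CCT and prefoldin, which fold actin and tubulin, had 7 of 8 genes positive and a median of 0.18, which was 0.07 with median scaling and 0.08 with no detection filter. The CCT subunits Cct6a (0.45 ± 0.18, adjusted p = 0.606) and Cct8 (0.39 ± 0.17, adjusted p = 0.630) were above the control mice in both transgenic mice, and the prefoldin subunit Pfdn5 was below them at -0.32. The single small heat shock protein tested, Hspb6, was at 0.16 in mouse 1 and -0.32 in mouse 2.

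Neighbouring stress programmes are given by mouse too, with no test of a difference from the chaperones. ER stress genes had a median of 0.34 over 17 genes, 15 of them positive, with 0.57 in transgenic mouse 1 and 0.25 in mouse 2, the reverse of the order of Hspa1a; the median was 0.17 both with median scaling and with background from all rows. Hspa5, Hyou1, Hsp90b1, Dnajb9 and Dnajc3 of this list also stand in the chaperone lists above. Hsp90b1, the HSP90 of the ER, was at 0.63 ± 0.19 (SE, adjusted p = 0.502) and the disulphide isomerase P4hb at 0.52 ± 0.25 (adjusted p = 0.644). Proteasome subunits had a median of 0.07 over 23 genes (0.02 in mouse 1, 0.13 in mouse 2; -0.10 with median scaling), with Psma4 at 0.26 (adjusted p = 0.728), Psmd1 at 0.18 (adjusted p = 0.784) and Psma2 at 0.09. Of the RNA binding proteins that rise on cooling, Cirbp was at -0.43 ± 0.16 (adjusted p = 0.592), below both control mice in both transgenic mice, whereas Rbm3 was at 0.18 and Srsf5 at -0.01, with overlap.

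Immediate early genes, which respond within minutes to growth signals and handling, lay below the control mean chiefly in transgenic mouse 1. All 16 tested had a negative change, with a median of -0.72 (-0.38 with background from all rows), and 0 were called. The median was -1.30 in transgenic mouse 1, where 11 were over 2-fold below the control mean (6.04% of all rows were), and -0.09 in mouse 2, where 1 was (1.82% of all rows were). The Fos level was 13.05 in control mouse 1, 12.98 in control mouse 2, 11.13 in transgenic mouse 1 and 13.17 in transgenic mouse 2. Gadd45b was at -1.01 ± 0.16 (SE, adjusted p = 0.191), with -1.01 in each transgenic mouse. Klf2 was at -0.64 ± 0.20 (adjusted p = 0.502), but it was detected on only 1 of 4 transgenic arrays, so its transgenic level is near background and the size of this difference is set by it. Fos and Hspa1a were thus both lowest in transgenic mouse 1, but Fos did not stand above the control mice in mouse 2 as Hspa1a did.

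Clock genes are given because several heat shock genes are known to cycle with the daily rhythm of body temperature, and the labels give no time of day. The 6 tested had a median of -0.89 (-0.87 in transgenic mouse 1, -0.90 in mouse 2), and limma called 0. It was -0.10 with no detection filter, -0.18 with background from all rows and -0.55 without control mouse 2. The clock output gene Dbp was at 10.98 in control mouse 1, 12.56 in control mouse 2, 9.97 in transgenic mouse 1 and 9.22 in transgenic mouse 2, a change of -2.18 ± 0.59 (SE, adjusted p = 0.434). The repressor Nr1d1 was at -1.18 ± 0.21 (adjusted p = 0.207), below the control mice in both, and Bhlhe40 at -0.10 with overlap. The part of clock phase in the chaperone levels was not tested.

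**Figure D4:**
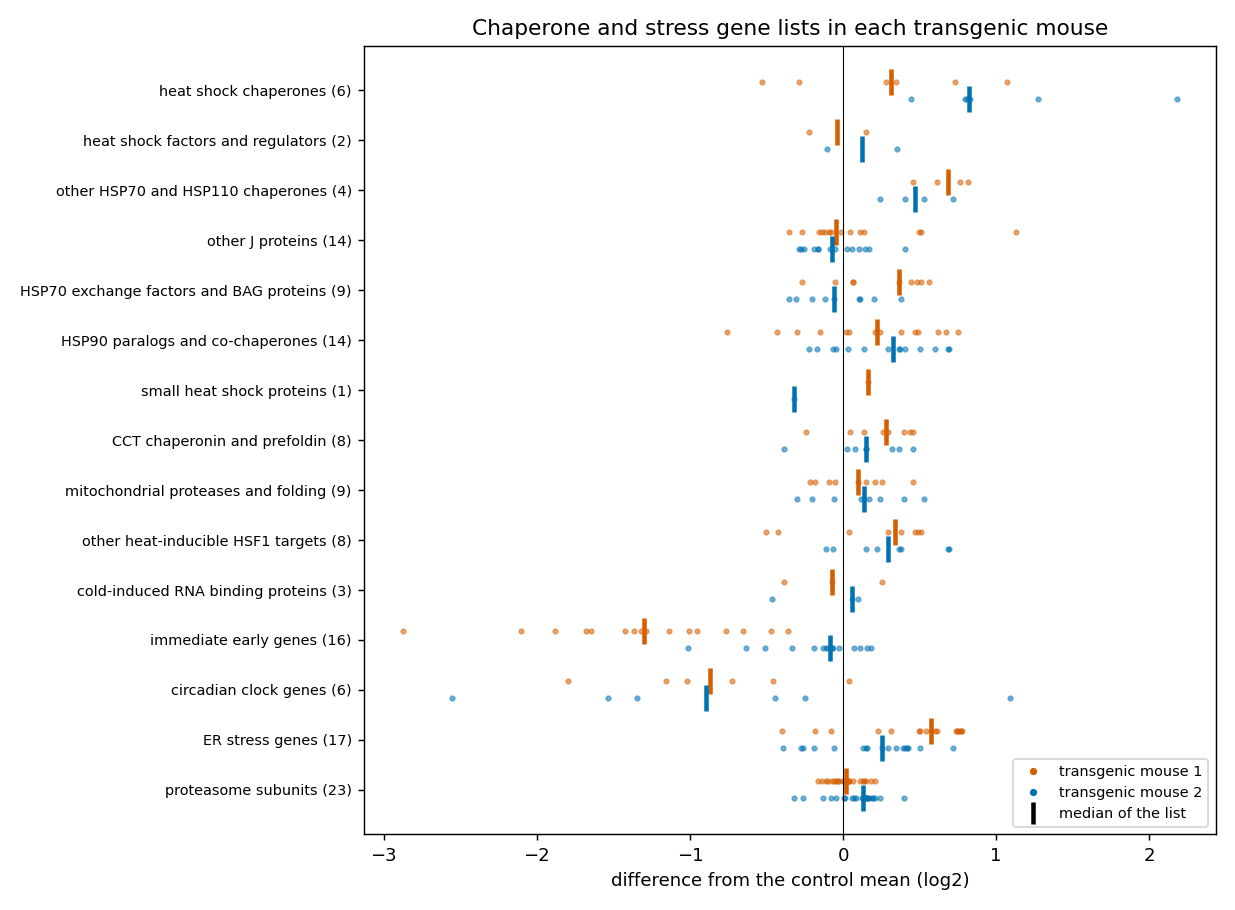
Difference from the control mean (log2, x axis) in transgenic mouse 1 (orange) and mouse 2 (blue) for the 6 chaperones and the tested genes of 14 lists; dots are genes, bars list medians, and the number of genes stands in brackets. The chaperone medians are 0.31 and 0.82, and those of the immediate early genes -1.30 and -0.09.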

How the data were processed

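Colonic mucosa RNA of 4 mice was measured on 8 arrays, 2 per mouse. The tools listed, without a version, are BeadStudio and Partek (per the submitters' processing notes). The deposited raw table holds 1 linear intensity per row and array, without normalization or background subtraction, as its values show. Beside it stands a detection fraction that the authors' scanner software wrote, named a p-value per the file headers. Since that fraction was larger for brighter rows (rank correlations from 0.945 to 0.954), 1 minus it was taken as the detection p. An alternative took the authors' own log2 values, as deposited, which differ by at most 0.023 from a quantile normalization of the raw table.

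Background was corrected by limma's normexp with the background inferred from the detection p of the 13920 rows whose values are whole multiples of 1/798 (within 0.005 steps), then an offset of 16, quantile normalization and log2. Rows with a detection p under 0.01 on at least 4 of 8 arrays (6982) were tested on mouse means with limma 3.58.1 (R 4.3.3), two-sided, with Benjamini-Hochberg adjustment over all rows and a threshold of 0.05. A gene with several rows is represented by its brightest. The number of mice and arrays limits the precision. Rows were named through the platform annotation (16610 of 18097 with a symbol); start windows and coordinates are RefSeq's for GRCm38.p6.

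Members and lists were chosen with earlier results of these data known. Named genes are the members, Dnmt1, Hsf1, and from each list the called genes or, with none, those 2 with the smallest p and the brightest one; and the 5 closest in pattern. The fit was tested on simulated data in which both genotypes had the same spread. In the data the transgenic mice spread more widely (median SD 0.215 against 0.103), which that test does not cover. Replicate numbers in the labels count arrays of 1 mouse, so they pair no mice.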

Additional observations from a re-analysis of the deposited data

How the results depend on the processing

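Over the alternatives that keep all 4 mice, the median change of the chaperones ran from 0.51 (median scaling) to 0.75 (background from all rows), and over those that leave out 1 mouse from 0.31 to 0.82. All 6 chaperones kept the sign of their change in every alternative run, except Hspa8 (-0.29) and Hspa1a (-0.53) without transgenic mouse 2. In transgenic mouse 2 the difference of Hspa1a from the control mean ran from 2.08 to 2.51 and in transgenic mouse 1 from -0.76 to -0.30, alternatives added after the data were seen. Median scaling also moved the median of all genes to -0.07 and that of the chaperones in transgenic mouse 1 from 0.31 to 0.05. The immediate early median was -0.09 without transgenic mouse 1. The count of rows called was 9, and 0 with background from all rows (555 at an unadjusted p under 0.05), 2 with no detection filter and 1 with detection on all 8 arrays. It was 185 in a fit of all 8 arrays with the mouse as a random effect, and 137 with the array number as a replicate block besides; both take degrees of freedom from arrays. Differences between array 1 and array 2 correlated between mice at -0.24 to 0.14, so no strong pattern was common to the mice. Whether the array number marks a batch that touched some rows was not tested. Of the 120 pathway genes 3 and 2 were called in the fits of all 8 arrays, and 0 in the others with all mice. Those called were all immediate early or clock genes. In every other list the smallest adjusted p of limma in these fits was at least 0.106. Of the 6 chaperones 1 was called in each of these fits, against 185 and 137 of the 6982 rows tested. In the other alternatives with all mice 0 of the 6 were called. The choice of members used this contrast, so nothing is read from these counts. Leaving out 1 mouse gave 0 to 851 rows and 0 to 17 pathway genes, the highest without transgenic mouse 2, a fit whose residual spread is that of the control pair. The Hspe1, Hsp90aa1 and Hspb1 signals are limited by array error or background.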

Other observations

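Outside the members, 24 tested genes had the long heat shock element motif in a RefSeq start window. Their median change was 0.11 (0.11 in transgenic mouse 1, 0.09 in mouse 2), against -0.01 over the 5282 tested genes with a window, and limma called 0 of the 24. Of these, 2 were over 2-fold above the control mean in transgenic mouse 2, against 96 of the 5282, and in transgenic mouse 1 0 were, against 194. Both are named after their values were seen: Bst2, an interferon-induced membrane protein (1.18, and 0.39 in mouse 1; the control mice stood at 9.49 and 7.69), and the transporter Slco2b1 (1.04, and -0.54 in mouse 1). Dnmt1 itself is among the 24.

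The clock gene Arntl stood at 8.83 in control mouse 1, 8.12 in control mouse 2, 8.02 in transgenic mouse 1 and 9.57 in transgenic mouse 2. It was highest in transgenic mouse 2, by about the gap between the control mice, and lowest in transgenic mouse 1, by less than that gap.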
